A study of Mus musculus with 26 samples.

Results

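Methylation was described at 52 genes for developmental transcription factors other than Hox genes: 8 Pax genes, 10 Sox genes, 8 Lhx genes, 5 Gata genes, 8 Tbx genes, 6 Nkx genes and 7 Fox genes, among 43712 genes that held at least 1 deposited position. The genes were taken from a list of names of genes with large CpG islands. That list was drawn up with earlier results of these data known. A position was assigned to a gene when it lay inside the gene's RefSeq span on GRCm38 or within 2000 bp of it, and it was used where the libraries compared had at least 10 reads there. Reduced representation bisulfite sequencing (RRBS), which reads CpG-rich fragments of bisulfite-treated DNA, was made from epididymal sperm of 26 mice.

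The founders were 3 SSCT F0 males, sterile W/W-v recipients that carried cultured DBA/2J spermatogonial stem cells in their testes, and 3 Control F0 DBA/2J males, all 16 to 18 months old. The recipients carried W/W-v mutations that the controls lacked, and they were of the WBB6F1/J strain, not DBA/2J. The donor cells had passed through culture before transplantation, so culture, transplantation, host strain and host genotype cannot be told apart in this comparison. The offspring libraries numbered 5 for each of the titles Control F1, SSCT F1, SSCT F2/P and SSCT F2/M, all from DBA/2J males of 3 months. F1 mice came from control or transplanted males and untreated females, F2/M mice from SSCT F1 females and F2/P mice from SSCT F1 males, each mated to control animals. The study and its deposited labels name the 4 offspring sets differently: its clustering display exchanges all 4 names, and the treatment label calls the libraries titled SSCT F2/M wild type. Names here are those of the sample titles, and because all 6 pairs of offspring sets were compared, every naming is covered by one of these pairs.

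The libraries held 45616751 to 87707577 reads at CpG positions. SSCT F0 replicate 3 stood apart, with 305964 positions and a median of 392 reads at the 175649 that had at least 10, against 1995496 to 2232483 positions in the 20 offspring libraries. SSCT F0 replicate 2 had 1123580 positions, and all 3 SSCT F0 libraries were made from less DNA per the label. The unmethylated control DNA read 0.542% to 1.26% methylated over all libraries, with the highest value in SSCT F0 replicate 3. At the CpG-dense positions of maternally methylated imprinted genes, which sperm lacks, library medians were 0.0151% to 2.18%. At the other positions of 4 paternally methylated genes, which have no CpG-dense position here, the medians were 37.7% to 53.4% in the 23 libraries outside SSCT F0, and 0.0253% to 42.5% in SSCT F0. At H19, methylated in sperm, SSCT F0 replicate 3 read 0.0282% over 8 positions while replicates 1 and 2 read 56.7% and 69.0%. Founder values are therefore given with and without SSCT F0 replicate 3, and its part in them was not tested.

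Pax, Sox, Lhx, Gata, Tbx, Nkx and Fox proteins bind DNA through domains shared within each family and direct the formation of organs in the embryo. Many of their starts lie in CpG islands, and many of these islands are held by Polycomb proteins in embryonic stem cells. Mammalian sperm DNA is methylated over most of its CpGs, with CpG islands as the main exception. Each gene's positions were therefore split: CpG-dense positions had at least 8 listed CpGs within the surrounding 200 bp and belonged to a run of at least 10 such CpGs, and all the other positions of the span and its margins were called flanks.

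The promoter sequences of 4 members with many measured CpGs are shown, since these CpG-rich starts were the parts that stayed almost free of methylation. They run from 250 bases before to 50 bases after the RefSeq start on GRCm38.p6, 5′ to 3′ on the strand of the gene, and the capitals mark CpGs measured in all 20 offspring libraries. Pax2, a regulator of kidney and ear development, lies on the plus strand at chr19:44756656-44756955, and 17 of its 30 promoter CpGs were measured. Lhx4, needed for the pituitary and motor neurons, lies on the minus strand at chr1:155741978-155742277, with 10 of 19 CpGs measured. Gata3, a regulator of T cells and of the ear, lies on the minus strand at chr2:9878551-9878850, with 9 of 22 CpGs measured. Foxc1, needed for the eye and the skeleton, lies on the plus strand at chr13:31806396-31806695, with 11 of 32 CpGs measured.
Pax2: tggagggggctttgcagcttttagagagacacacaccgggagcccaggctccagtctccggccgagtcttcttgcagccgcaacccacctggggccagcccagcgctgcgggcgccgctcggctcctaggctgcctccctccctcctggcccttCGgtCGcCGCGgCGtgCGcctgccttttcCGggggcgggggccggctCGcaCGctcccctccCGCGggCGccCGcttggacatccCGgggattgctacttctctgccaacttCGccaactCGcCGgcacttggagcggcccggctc
Lhx4: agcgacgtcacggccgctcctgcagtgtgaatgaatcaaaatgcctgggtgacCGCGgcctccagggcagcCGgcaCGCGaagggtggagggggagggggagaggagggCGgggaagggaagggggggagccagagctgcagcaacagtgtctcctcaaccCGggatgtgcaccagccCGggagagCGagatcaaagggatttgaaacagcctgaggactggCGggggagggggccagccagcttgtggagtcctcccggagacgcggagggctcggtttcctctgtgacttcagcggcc
Gata3: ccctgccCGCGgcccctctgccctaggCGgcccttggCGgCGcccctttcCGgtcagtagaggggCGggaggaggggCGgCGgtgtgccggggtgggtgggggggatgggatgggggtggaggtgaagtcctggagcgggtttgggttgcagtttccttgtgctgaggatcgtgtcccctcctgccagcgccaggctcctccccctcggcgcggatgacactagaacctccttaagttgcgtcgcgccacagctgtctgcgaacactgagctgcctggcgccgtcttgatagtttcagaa
Foxc1: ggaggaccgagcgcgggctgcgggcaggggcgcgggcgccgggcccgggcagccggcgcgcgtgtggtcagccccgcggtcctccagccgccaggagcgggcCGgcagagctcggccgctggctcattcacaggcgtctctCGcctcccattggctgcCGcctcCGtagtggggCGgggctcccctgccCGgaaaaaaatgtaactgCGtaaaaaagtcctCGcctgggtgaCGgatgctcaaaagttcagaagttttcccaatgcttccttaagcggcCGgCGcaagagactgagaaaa

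Over these windows the methylation level in the 20 offspring libraries was 1.36% ± 1.03 (SD, n = 20) at Pax2, 1.74% ± 1.96 at Lhx4, 1.8% ± 1.9 at Gata3 and 2.3% ± 2.65 at Foxc1. The highest single library reached 3.05% at Pax2 and 9.89% at Foxc1, so every library read each of these promoters below 10%. RefSeq promoters were matched for 38 of the 52 members. The members' promoters held a median of 21.5 CG dinucleotides in 300 bases, against 8.0 over 27025 genes, and 32 of the 38 held at least 10, against 45.8% of all genes. This contrast follows from the choice of genes with large CpG islands. In 16 members at least 3 promoter positions were measured, and all 16 lay below 10%, from 0.339% at Foxa2, which directs endoderm and floor plate formation, to 4.13% at Tbx1, a gene of pharyngeal and heart outflow development.

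The offspring libraries gave 2380 CpG-dense and 1052 flank positions of the members, covered in all 20. CpG-dense positions were almost unmethylated in each library, with a mean of 2.5% ± 0.11 and a range of 2.3% to 2.71%. Flanks were methylated at 27.5% ± 0.441, from 26.6% to 28.1%, and the libraries differed little from one another. Over every position tested, CpG-dense positions read 3.77% ± 0.0175 and flanks 61.8% ± 0.206, so flanks of the members lay far below those of the genome, with no overlap between any of the libraries. This difference is between sets of positions in the same libraries and was not given a p-value. The members were chosen as genes with large CpG islands, and the part of that choice in the difference was not tested. Single positions fell mostly at the extremes: 98.1% of the members' CpG-dense positions and 64.1% of their flank positions were under 10%, and 22.2% of the flank positions were over 80%. Over all genes, 30.4% of flank positions were under 10% and 55.9% over 80%.

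The families differed mainly in their flanks. Sox genes, which act in sex determination, neural crest, cartilage and endothelium, had the most methylated flanks at 57.9% ± 0.947 over 205 positions, and their CpG-dense positions read 4.37% ± 0.262. Both values rested on single genes: without Sox5, which held 122 of the 205 positions, Sox flanks read 32.1% ± 1.3, near those of Pax, and without the 9 methylated positions of Sox10 the Sox CpG-dense level was 1.89% ± 0.247. Pax flanks read 31.6% ± 0.761 over 220 positions, with CpG-dense positions at 2.78% ± 0.212. The flanks of Tbx, Lhx and Gata genes were close to each other, at 21.0% ± 1.09, 20.4% ± 0.648 and 19.2% ± 0.976, and the ranges of the libraries overlapped between these 3 families. Nkx and Fox genes, homeobox and forkhead factors of brain, gut and heart, were low in both classes. Nkx flanks read 3.35% ± 0.808 over 83 positions and Fox flanks 4.38% ± 0.776 over 73, with CpG-dense positions at 2.06% ± 0.419 and 1.45% ± 0.211. At CpG-dense positions the ranges of the libraries overlapped among the Gata, Lhx, Nkx and Fox genes. The Pax range met those of Lhx, Nkx and Tbx, and the Tbx range met that of Nkx. Nkx and Fox flanks overlapped as well.

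**Figure D1:**
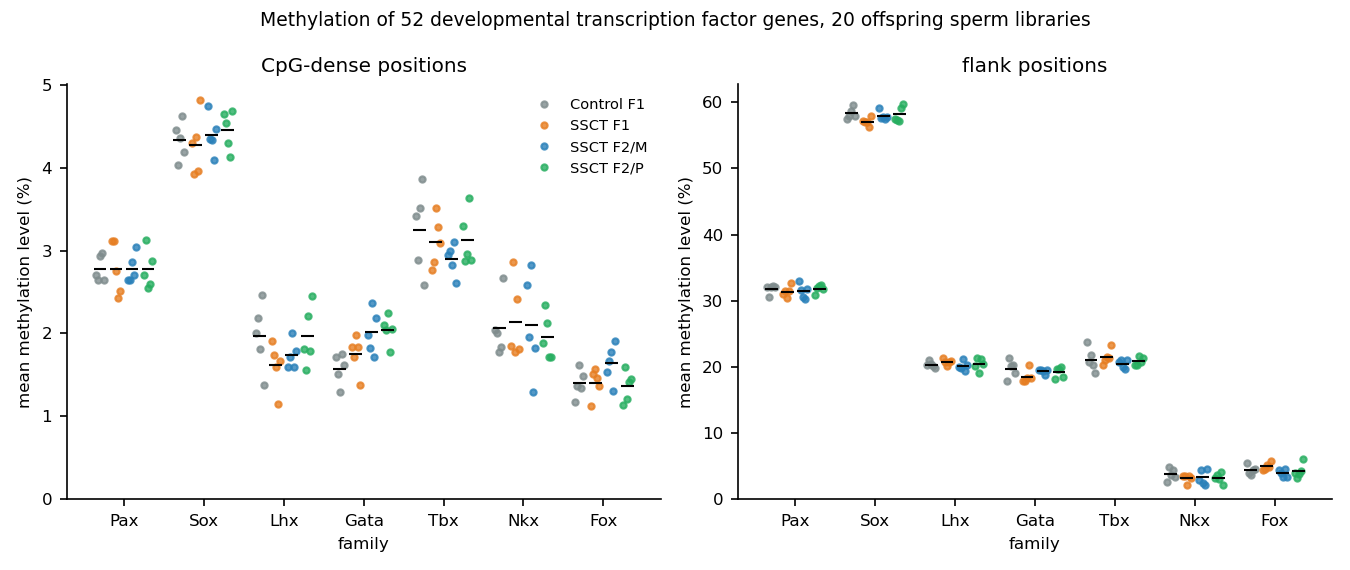
Methylation level in percent at CpG-dense and flank positions of each family, one point per offspring library in its group, with a line at the group mean. Each family's CpG-dense positions lie below 5% in every library, while the flanks range from a mean of 3.35% in Nkx to 57.9% in Sox, where Sox5 holds 122 of 205 positions and the other Sox genes read 32.1%.

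Over all members together, none of the 4 offspring sets stood away from the others. CpG-dense positions of the members read 2.49% ± 0.146 in Control F1 (n = 5), 2.45% ± 0.0804 in SSCT F1. They read 2.52% ± 0.144 in SSCT F2/M, while SSCT F2/P had 2.53% ± 0.0566. Flanks read 27.8% ± 0.328, 27.3% ± 0.456, 27.3% ± 0.509 and 27.6% ± 0.456 in the same order. The libraries of the 4 sets overlapped in both classes. By family, the CpG-dense positions of the Gata genes read 1.57% ± 0.183 in Control F1 and 2.04% ± 0.172 in SSCT F2/P. These libraries did not overlap, with 1.29% to 1.75% against 1.78% to 2.25%. The pair was picked out after the values were seen and was not tested. In the other families, and in the Gata flanks, the libraries of the sets overlapped.

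Single genes were alike at their CpG-dense positions. The member of each family with the most CpG-dense positions lay between 1.38% and 1.91%: Pax2 read 1.72% ± 0.477 over 115 positions, Sox17, an endoderm and endothelium factor, 1.76% ± 0.563 over 59, Lhx4 1.59% ± 0.687 over 66 and Gata3 1.91% ± 0.583 over 87. Tbx2, a repressor of limb and heart development, read 1.38% ± 0.481 over 115 positions, Nkx2-2, needed in the ventral spinal cord and pancreas, 1.4% ± 0.647 over 56, and Foxc1 1.54% ± 0.485 over 114. Each mean lay within 1 SD of Gata3, the highest of them. By gene, 50 of the 51 members with at least 3 CpG-dense positions lay under 10%, and their median was 1.76%, against 1.67% over 14263 genes, of which 95.6% lay under 10%. The medians were 1.61% for the other genes of these families, a list of 68, and 1.8% for the 39 Hox genes.

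Flanks separated the genes. Sox5, a cartilage and neuron factor with a long gene body, had the highest flank level of genes with at least 10 positions, with a mean of 75.4% ± 1.19 over 122 positions and a range of 73.4% to 77.9%. Lhx6, which acts in cortical interneurons, read 67.4% ± 5.47, Pax5, the B-cell factor, 64.3% ± 2.07 and Tbx1 64.0% ± 6.1. Gata2, a factor of blood stem cells, read 55.5% ± 6.62 and Lhx9, needed for the gonad, 52.4% ± 3.48. At the other end lay Nkx6-1, a pancreas and motor neuron gene, with 1.85% ± 1.98, Nkx2-3 with 1.94% ± 1.19, Foxa1 with 1.95% ± 0.937 and Pax9, needed for teeth and thymus, with 2.18% ± 1.34. The SD ranges of Sox5 and Lhx6 did not meet, while those of every other pair of neighbours at either end met. The Gata3 flank, with 84 positions, lay between the ends at 11% ± 1.45, from 9.04% to 14%. By gene, the median flank level of 49 members was 11%, with 23 under 10% and 7 over 50%, against 57.4% over 17984 genes, of which 19.3% were under 10%. Other genes of the same families had a median of 17.1% and Hox genes 7.13%.

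**Figure D2:**
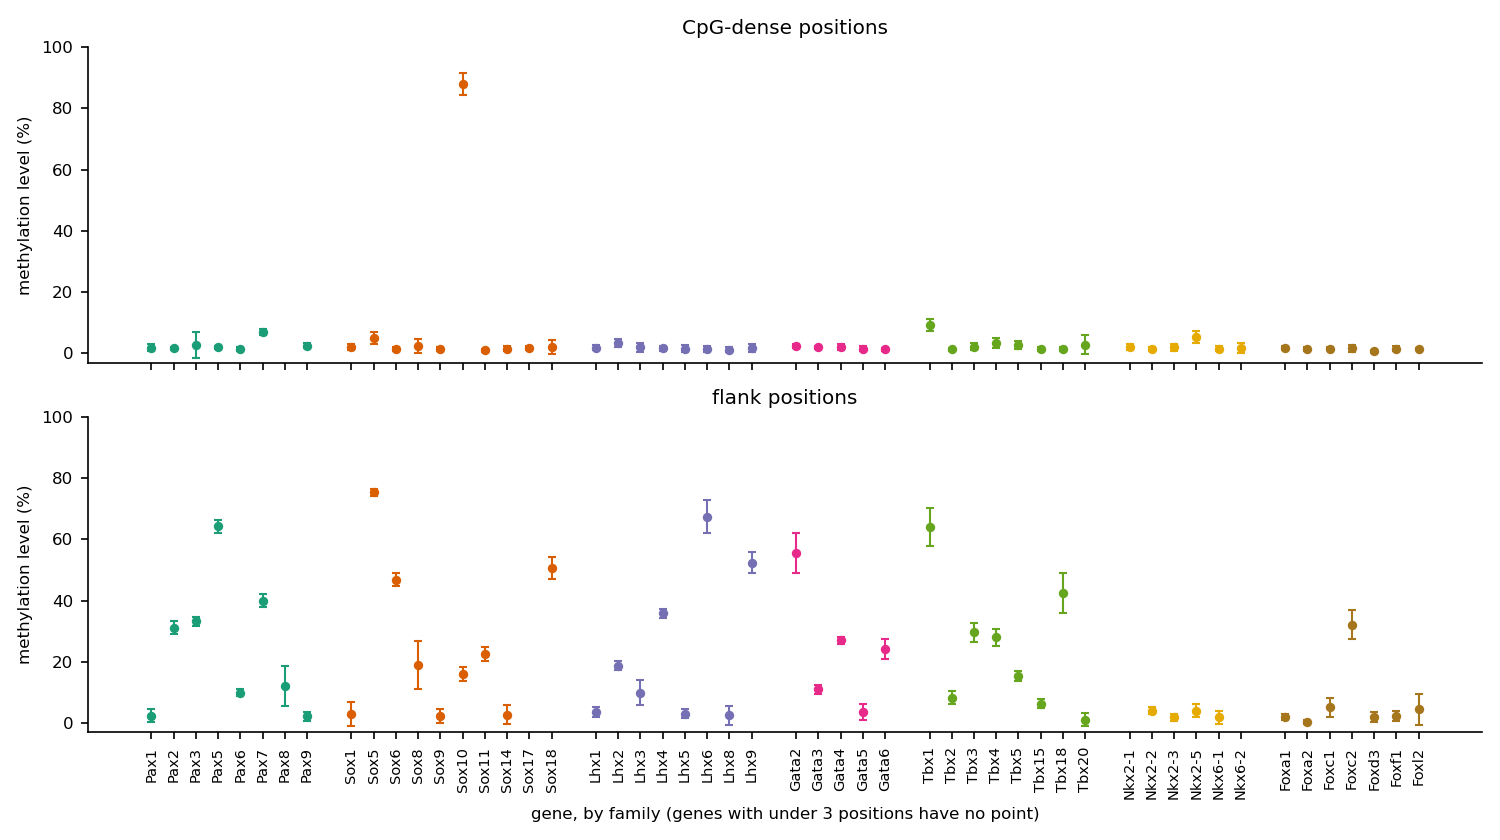
Methylation level in percent at CpG-dense and flank positions of each member with at least 3 positions, as the mean and SD over the 20 offspring libraries. CpG-dense positions lie under 10% in each gene except Sox10, whose 9 CpG-dense positions read 87.9%, and flanks run from 0.392% at Foxa2 to 75.4% at Sox5.

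The flank level rose with distance from the nearest CpG-dense run. Within 250 bp of a run the members' flanks read 3.84% ± 0.409, from 251 to 500 bp 4.1% ± 0.582, and from 501 to 1000 bp 11.4% ± 0.776. They reached 26% ± 1.49 from 1001 to 2000 bp and 39.3% ± 1.23 from 2001 to 5000 bp. Beyond 5000 bp they read 67.6% ± 0.912. Over every gene the same steps were 6.56%, 8.04%, 22.3%, 55.9%, 71.8% and 73.1%, so the members were lower at each distance, by the widest margin between 1001 and 5000 bp. The step from 2001 to 5000 bp rests on 75 member positions and the last on 274.

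**Figure D3:**
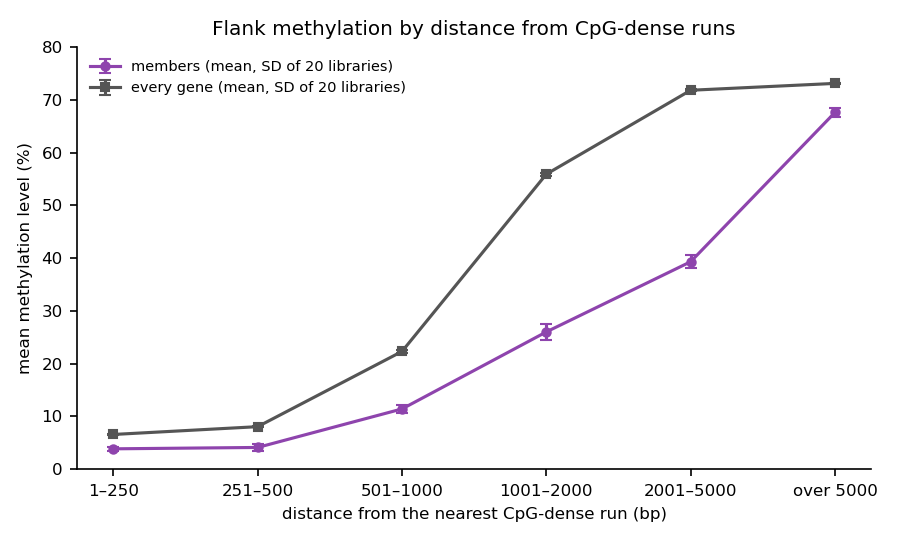
Methylation level in percent against distance in bp from the nearest CpG-dense run, for the members and for every gene, as means over the 20 offspring libraries with SD. The members rise from 3.84% next to a run to 67.6% beyond 5000 bp and stay below every gene at each step.

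Not every CpG-dense stretch was unmethylated. The members held 215 CpG-dense runs, 167 of them with at least 3 positions, and 162 of these (97.0%) read under 10%, against 93.7% of 14018 runs over all genes. Only 3 runs read over 50% and 2 lay between 10% and 50%, and none of the 5 overlapped a matched promoter, though that of Sox10 was not matched. Pax7, a factor of muscle satellite cells and neural crest, held the highest, at chr4:139830164-139830318, with 97.8% ± 3.51 over 3 positions and a range of 88.2% to 100.0%. A neighbouring Pax7 run at chr4:139828380-139828655 was intermediate and varied widely between mice, with 23.2% ± 14 over 5 positions and a range of 1.18% to 52.2%. The run at chr15:79165967-79166157, 1477 bp above the higher coordinate of the span of Sox10, a neural crest and glial factor, read 87.9% ± 3.65 over 9 positions. At Tbx1 the run at chr16:18581266-18581459 read 65.4% ± 9.91 over 6 positions, from 45.6% to 77.1%, while a neighbour that starts at 18581663 read 7.47% ± 5.48. The run at chr17:26844183-26844372 of Nkx2-5, the heart factor, read 11.4% ± 6.51 over 7 positions. With their methylated runs included, Tbx1 had the highest CpG-dense level of genes with at least 10 positions, 9.27% ± 1.88, followed by Pax7 at 6.99% ± 0.976, and Nkx2-5 read 5.34% ± 1.83. Sox5 with 5.01% ± 2.11, Lhx2 with 3.41% ± 1.19 and Tbx4, a hindlimb gene, with 3.36% ± 1.7 came next in that order.

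The comparison of SSCT F0 with Control F0 asked whether culture and transplantation of the stem cells left a mark in the sperm of the recipients. Over the 745 CpG-dense member positions covered in all 6 libraries, the Control F0 libraries read 1.95%, 2.31% and 2.39% and the SSCT F0 libraries 2.98%, 2.8% and 2.79%. The groups did not overlap, with means of 2.22% ± 0.233 and 2.86% ± 0.104. Over every CpG-dense position the levels were 1.97% ± 0.00915 and 2.0% ± 0.135. Over the 250 flank positions Control F0 read 9.38%, 6.91% and 10.1% and SSCT F0 9.64%, 7.47% and 3.62%, and the groups overlapped. The low value belonged to SSCT F0 replicate 3.

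Without SSCT F0 replicate 3, far more positions could be used, 4057 CpG-dense and 1328 flank positions of the members, in a comparison added after the data were seen. The Control F0 libraries then read 2.05%, 2.02% and 2.09% at CpG-dense positions and the SSCT F0 libraries 2.5% and 2.6%, again without overlap. Over every CpG-dense position the same libraries read 2.39% ± 0.0295 and 2.49% ± 0.0469. They did not overlap there either, with 2.36% to 2.42% in Control F0 and 2.46% to 2.52% in SSCT F0. Flanks read 17.1%, 15.8% and 16.7% in Control F0 and 16.0% and 14% in SSCT F0, against 42.9% ± 0.599 and 41.1% ± 2.37 over every flank position. The conversion control, which moves with unconverted cytosine, read 0.89% and 0.983% in the 2 SSCT F0 libraries and 0.634% to 0.936% in Control F0, and its part in the difference was not tested. The difference depended on the positions: over the 1755 CpG-dense member positions that the offspring libraries covered as well, the means were 2.23% ± 0.0683 and 2.51% ± 0.0524, and those of the Fox genes 1.43% ± 0.0763 and 1.45% ± 0.944. By gene, 35 of 51 members (68.6%) had a higher CpG-dense mean in SSCT F0, with a median difference of 0.346 points, against 45.3% of all genes and a median of -0.0985 points. In flanks 23 of 51 members were higher, with a median of -0.278 points against -0.712 over all genes.

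**Figure D4:**
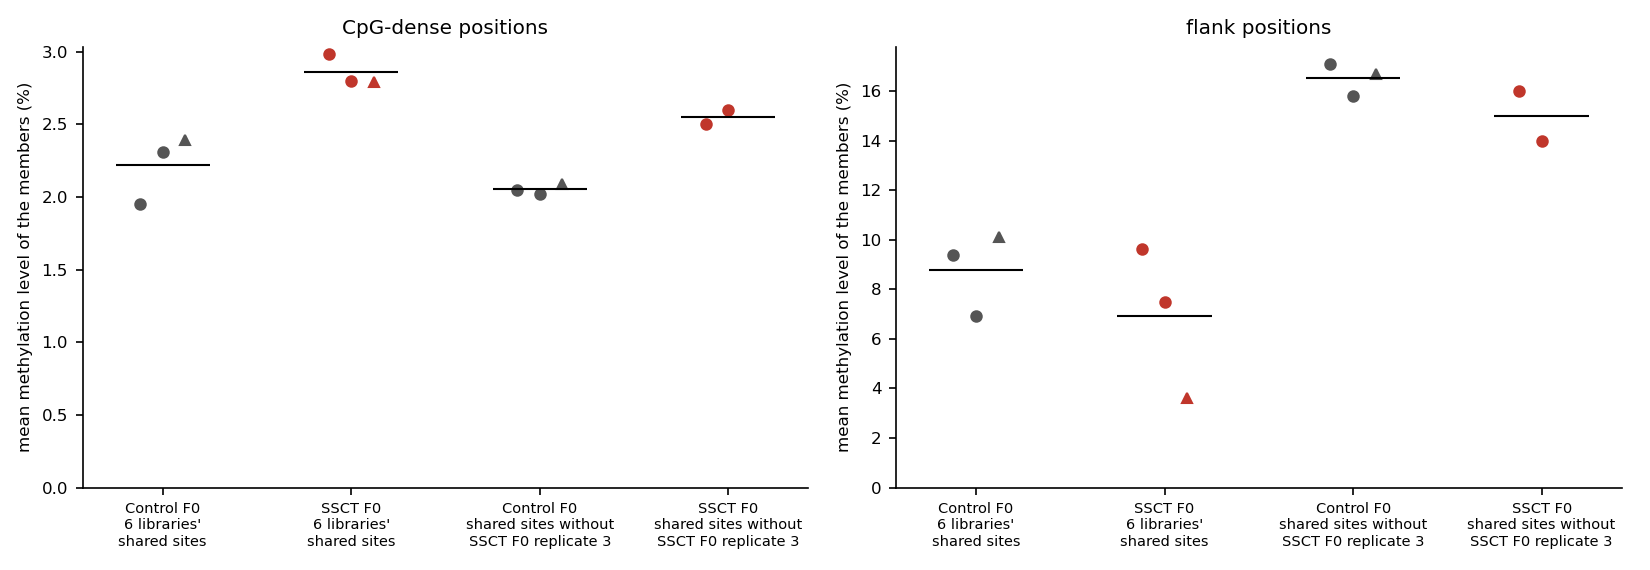
Methylation level in percent of the members at CpG-dense and flank positions in each founder library, and in the wider set of positions without SSCT F0 replicate 3. SSCT F0 libraries lie above Control F0 at CpG-dense positions, 2.86% against 2.22% on average over all 6 libraries. Points are single libraries, triangles are replicate 3 and lines are means, and the groups overlap in flanks in both sets of positions.

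Pax2, Lhx2 and Gata2 were among the 35 of 51 members higher at CpG-dense positions in SSCT F0 without replicate 3. Other members were lower, such as Pax7, with means of 3.57% in Control F0 and 1.94% in SSCT F0, and Sox6, with 2.21% and 1.08%. At Pax2 the Control F0 libraries read 1.6%, 1.29% and 1.25% and SSCT F0 replicates 1 and 2 read 2.91% and 2.81%. At Lhx2, a forebrain and eye gene, they read 1.87%, 1.49% and 2.8% against 4.05% and 5.15%. Gata2 read 1.79%, 1.77% and 1.28% against 3.03% and 3.33%. In each of these 3 genes both SSCT F0 libraries lay above all 3 controls. The share of all genes separated in this way was not counted. Their limma log2 differences were 0.87 at Pax2, 1.14 at Lhx2 and 0.21 at Gata2 (adjusted p = 0.662, 0.633 and 0.924). Foxa1, a factor of endoderm and breast epithelium, read 1.88%, 1.4% and 1.61% against 2.64% and 4.26%, and Foxd3, a factor of neural crest and pluripotent cells, 0.856%, 1.67% and 0.867% against 2.27% and 3.44%. A wider difference of means lay at Sox10, which read 36.8%, 37.5% and 35.7% against 40.7% and 47.4% over 19 positions, although the limma log2 difference there, over summed reads, was -0.34 (SE 0.612, adjusted p = 0.86). Tbx20, a heart gene with 3 positions, read 2.38%, 1.6% and 7.04% against 0% and 17.3%. Tbx1 overlapped, with 7.71%, 6.77% and 8.51% against 8.49% and 10.2%. No gene passed: limma, run on the log2 ratio of methylated and unmethylated reads of each gene and class, called 0 of 33547, members included, and at an unadjusted p under 0.05 it called 4 of 102 member classes (3.92%) against 8.87% of all. Foxd3 had an adjusted p of 0.546. By family over all 6 libraries, Lhx genes read 1.52% ± 0.857 in Control F0 and 3.7% ± 0.869 in SSCT F0, and Fox genes 1.33% ± 0.171 and 2.78% ± 1.26, both without overlap, while the libraries of the other families overlapped. Without SSCT F0 replicate 3 the Lhx genes read 1.72% ± 0.0906 and 2.87% ± 0.423 and the Fox genes 1.45% ± 0.0411 and 2.43% ± 0.142, and the Gata and Tbx genes no longer overlapped either.

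Single CpGs and 1000 bp windows were called with a logistic test of the summed reads at a q under 0.01 and a difference over 25 points, which takes no account of the spread between mice. Over all 6 founder libraries 52 of 995 member CpGs (5.23%) were called, against 5.83% of all CpGs tested, 30 higher and 22 lower in SSCT F0. At CpG-dense positions the share was 3.49%, 26 of 745, against 2.15% of all, and 22 of the 26 (84.6%) were higher, beside 86.4% of such calls over all genes. In 15 of the 22, SSCT F0 replicate 3 read over 50% while replicates 1 and 2 read under 10%, and the matching count over all genes was not made. At flanks 26 of 250 (10.4%) were called, against 14.4%. Of 200 member windows 11 (5.5%) were called, against 10.0% of all windows. Windows in which the libraries did not overlap numbered 25 of 200 (12.5%), against 10.8% of all, and for single CpGs 32 of 995 (3.22%) against 3.1%. Without SSCT F0 replicate 3, 215 of 5385 member CpGs (3.99%) were called against 5.83%. At CpG-dense positions 91 of 4057 (2.24%) were called against 1.99%, 82 of them (90.1%) higher in SSCT F0, beside 87.6% over all genes, and at flanks 124 of 1328 (9.34%) against 12.7%. These 82 were spread over 34 genes, led by Tbx1 with 12, Pax2 with 6 and Lhx2 with 5. Of 472 member windows 31 (6.57%) were called against 10.1%. Of the 31, 30 held flank positions only, and the matching share over all genes was not counted. Of the 31, 27 were lower in SSCT F0 and 12.9% higher, where 29.0% of the calls over all windows were higher.

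Of the windows called over all 6 libraries, that of Tbx15, a factor of skeletal and adipose development, was higher in each SSCT F0 library. At chr3:99258001-99259000 the 3 SSCT F0 libraries read 34.8%, 45.1% and 33.6% and the Control F0 libraries 2.42%, 0% and 1.8% over 3 positions. The groups did not overlap, with means of 37.8% ± 6.28 and 1.41% ± 1.26, a difference of 34.1 points over summed reads, a q of 4.43e-60 and an exact two-sided permutation p of 0.1, the smallest this design allows. Over the wider positions without SSCT F0 replicate 3 the difference was 22.1 points and the window was no longer called, and a test scaled by the spread between libraries gave a q of 0.0965. The libraries differed within the window: at its called CpG, position 99258355, SSCT F0 replicates 1, 2 and 3 read 0%, 45.1% and 100% and each control 0%. A window of Sox5 at chr6:144202001-144203000 was lower in SSCT F0, with 4.05%, 0% and 0.0508% against 21.4%, 26.3% and 43.8% over 4 positions, a difference of -32.8 points (exact permutation p = 0.1). A single position of Pax3, a neural crest and muscle gene, in chr1:78188001-78189000 read 80.8%, 37.0% and 0% against 100%, 98.7% and 94.4% (exact permutation p = 0.1), so the SSCT F0 libraries were all lower but far apart from each other.

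The other called windows rested on SSCT F0 replicate 3 or were split among the SSCT F0 libraries. Lhx6 at chr2:36097001-36098000 read 100%, 0% and 0.0451% in SSCT F0 and 70.0%, 86.3% and 91.6% in Control F0 (exact permutation p = 0.4). Foxf1, a factor of gut and lung mesenchyme, at chr8:121087001-121088000 read 100%, 100% and 0% against 77.8%, 87.8% and 64.0% (exact permutation p = 1.0). Sox6, a cartilage and muscle factor, at chr7:115568001-115569000 read 86.9%, 97.7% and 0% against 100%, 28.5% and 83.0% (exact permutation p = 0.8). Gata6 at chr18:11083001-11084000 read 100%, 100% and 0% against 100%, 56.0% and 89.5% (exact permutation p = 1.0). In all 3 the value of 0% was that of SSCT F0 replicate 3, and the difference changed direction without that library. Nkx2-3, a spleen and gut gene, at chr19:43612001-43613000 read 0%, 10.0% and 79.3% against 0%, 1.92% and 11.1% (exact permutation p = 0.7), and it too changed direction without replicate 3. In the window of Sox11, a factor of neural progenitors, at chr12:27339001-27340000, all 10 positions were CpG-dense and the SSCT F0 libraries read 2.5%, 3.86% and 39.9% against 0% in each control, so the call came from replicate 3. A second Sox5 window, chr6:144181001-144182000, was higher in SSCT F0, with 10.3%, 0.418% and 37.0% against 0% in each control (exact permutation p = 0.1). Nkx6-1 at chr5:101658001-101659000 read 0%, 2.86% and 33.3% against 4.44%, 0% and 0% (exact permutation p = 0.7).

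Without SSCT F0 replicate 3, both SSCT F0 libraries lay below all controls in 18 of the 27 lower windows, and replicate 2 read lower than replicate 1 in 22. A call already required a large difference, which favours such separation. The matching shares of lower called windows over all genes were not counted, so these counts say nothing particular about the members. At Tbx3, a limb and breast gene, chr5:119675001-119676000 read 47.4% and 3.66% in SSCT F0 and 89.9%, 100% and 90.7% in Control F0. Foxc2, a factor of lymphatic vessels, at chr8:121119001-121120000 read 64.7% and 12.1% against 100% in each control. Gata2 at chr6:88203001-88204000 read 52.5% and 16.1% against 85.9%, 79.9% and 84.9% over 7 positions, a difference of -57.4 points (q = 2.8e-142). In all 3 windows the groups did not overlap. The Gata2 flank as a whole read 30.2% and 13% against 51.0%, 52.6% and 54.0%, with an adjusted p of 0.523 from limma. Pax2 at chr19:44808001-44809000 read 0% in both SSCT F0 libraries and 45.6%, 33.3% and 69.2% in Control F0. The Pax7 window at chr4:139828001-139829000, which holds the intermediate run, was the only lower window with CpG-dense positions, with 4.6% and 7.13% against 18.3%, 32.8% and 38.9%. Of the 4 higher windows, that of Lhx3, a pituitary and motor neuron gene, at chr2:26205001-26206000 read 29.3% and 47.0% against 18.7%, 7.76% and 11.1% over 6 positions. Called or not, 105 of the 472 member windows did not overlap, against 18.6% of all windows.

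**Figure D5:**
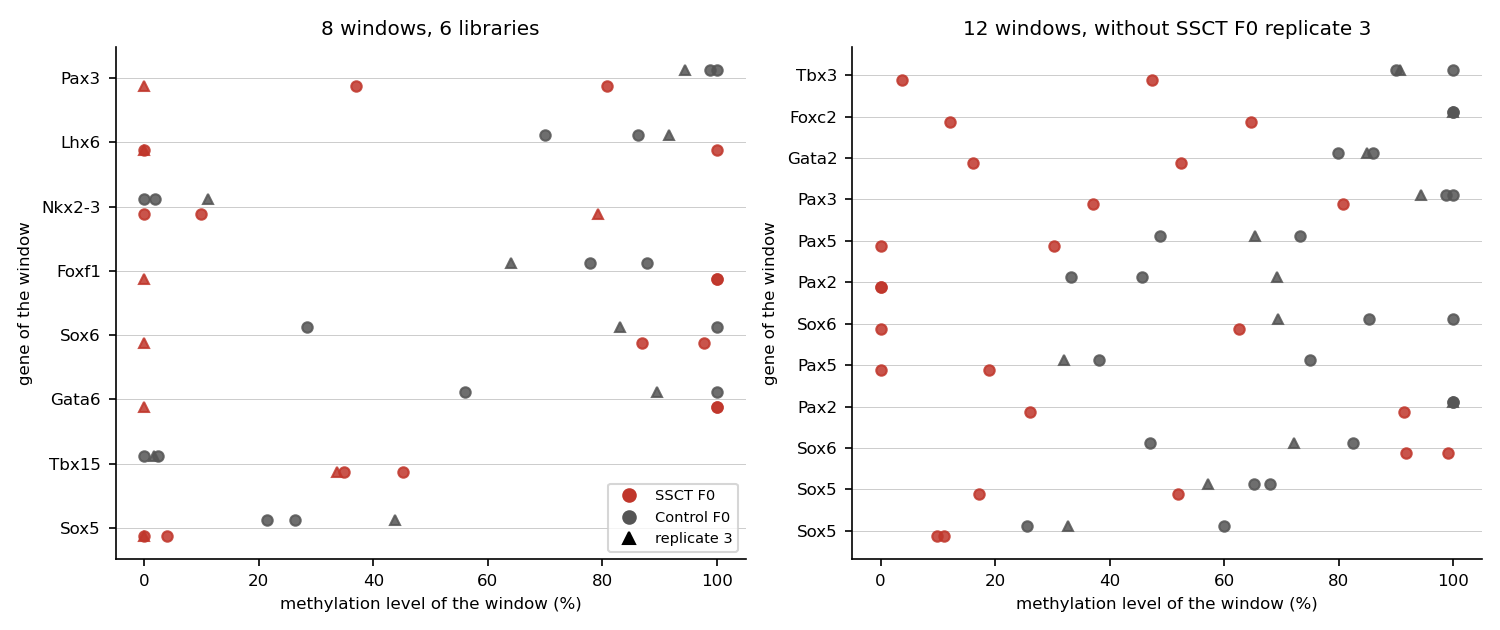
Methylation level in percent of founder windows, one point per library, Control F0 in grey and SSCT F0 in red. On the left are the 8 windows with the largest differences of those called over 6 libraries. On the right are 12 of the 31 called without SSCT F0 replicate 3. They have the largest differences of the 21 in which the groups did not overlap, so the separation there follows from the choice. Not all of the windows are named in the text. Tbx15 is higher in all 3 SSCT F0 libraries, 33.6% to 45.1% against at most 2.42%, while the SSCT F0 libraries lie far apart in the windows of Pax3, Lhx6 and Foxf1.

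Of the 27 windows that were lower in the founders without SSCT F0 replicate 3, 17 were covered in the offspring. The Tbx3 window had an offspring median of 100.0%, with a range of 77.2% to 100% in 20 libraries, the Foxc2 window a median of 79.6% and the Gata2 window, with 2 positions covered there, a median of 80.5%. These medians lay above both SSCT F0 values of the same windows. Among other lower windows, Pax7 ranged from 1.18% to 52.2% and Pax5 at chr4:44556001-44557000 from 0% to 92.5%. Each range took in both SSCT F0 values, though the medians, 18.7% and 49.5%, lay above them. The Pax5 window at chr4:44633001-44634000 read 30.3% and 0% in SSCT F0 against 73.3%, 48.8% and 65.4%. It averaged 37.2% in SSCT F2/P, where it was also called, and 60.3% to 68.8% in the other sets. A link was not tested. The Gata2 window read 52.9% ± 26.4 in SSCT F1 and 76.7% to 84.1% as means of the other sets. The Lhx3 window had an offspring median of 9.93%, from 2.27% to 17.4%, at the level of Control F0.

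The offspring comparisons asked whether differences reached the next generations. Against Control F1, 14 of 4447 member CpGs (0.315%) were called for SSCT F1, where 0.462% of all CpGs were. For SSCT F2/M the count was 16 of 5083 (0.315%), beside 0.42%, and for SSCT F2/P 9 of 5255 (0.171%), beside 0.43%. The called CpGs lay mostly in flanks: 12, 15 and 5 of 1384, 1532 and 1604 flank CpGs were called in this order, where 0.848%, 0.782% and 0.804% of all flank CpGs were. Of the members' 3063, 3551 and 3651 CpG-dense CpGs, 2, 1 and 4 were called, beside 0.0544%, 0.0595% and 0.0556% of all. For SSCT F1, 2 of 528 windows (0.379%) were called, beside 0.415% of all windows. For SSCT F2/M it was 3 of 533 (0.563%), beside 0.363%, and for SSCT F2/P 1 of 555 (0.18%), beside 0.392%. Libraries did not overlap in 1, 4 and 1 of the member windows, called or not, where 0.432%, 0.428% and 0.469% of all windows did not. With counts this small, the shares say nothing particular about the members. The other 3 pairs of sets were SSCT F1 against SSCT F2/M, SSCT F1 against SSCT F2/P and SSCT F2/P against SSCT F2/M. In this order 12 of 4518, 16 of 4771 and 14 of 5359 member CpGs were called, where 0.439%, 0.447% and 0.404% of all CpGs were. Of member windows, 0 of 514, 3 of 527 and 1 of 550 were called, where 0.369%, 0.408% and 0.368% of all windows were. The comparisons against Control F1 share its 5 libraries.

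Each of the 6 windows called against Control F1 rested on 1 position, and the libraries overlapped in all 6. Pax5 at chr4:44557001-44558000 read 17.2%, 53.3%, 78.1%, 85.7% and 73.1% in SSCT F1 and 15.6%, 40.3%, 27.9%, 68.9% and 38.1% in Control F1 (exact permutation p = 0.159). Sox5 at chr6:144117001-144118000 read 62.3%, 45.7%, 96.4%, 100% and 100% in SSCT F2/M against 0%, 0%, 100%, 100% and 40.5% (exact permutation p = 0.206). Both sets of Sox5 values spanned most of the scale. Another Pax5 window, chr4:44633001-44634000, read 26%, 32.7%, 54.7%, 28.6% and 44.0% in SSCT F2/P against 83.9%, 59.5%, 45.9%, 55.7% and 77.5%, a difference of -25.9 points (unadjusted exact permutation p = 0.0159). Tbx3 at chr5:119684001-119685000 differed by 27 points in SSCT F2/M (exact permutation p = 0.0714), Pax2 at chr19:44812001-44813000 by 26.8 points in SSCT F2/M (exact permutation p = 0.0873) and Gata6, a heart and endoderm factor, at chr18:11083001-11084000 by -28.1 points in SSCT F1 (exact permutation p = 0.143). Each of the 6 lost its call when 1 of certain single libraries was left out. The Sox5 difference was 19 points without Control F1 replicate 1. That of Pax2 was 24.8 without the same library and 18.1 without replicate 5 of SSCT F2/M. The other 4 stayed between 21.9 and 24.7 points in size where they lost it: the SSCT F1 window of Pax5 without SSCT F1 replicates 3 or 4 or Control F1 replicate 1, Gata6 without SSCT F1 replicates 2 or 4 or Control F1 replicate 1, Tbx3 without SSCT F2/M replicates 1 or 5 or Control F1 replicates 2 or 4, and the SSCT F2/P window of Pax5 without SSCT F2/P replicates 1, 2 or 4 or Control F1 replicates 1 or 5.

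Among the called member CpGs, 5 did not overlap between the libraries of the sets compared with Control F1, each with an unadjusted exact permutation p of 0.00794, the smallest that 5 against 5 allows. Called or not, 4 of 4447, 6 of 5083 and 7 of 5255 member CpGs (0.0899%, 0.118% and 0.133%) did not overlap in the 3 comparisons, beside 0.14%, 0.14% and 0.142% of all CpGs. One of them, the last CpG of the methylated Tbx1 run at 18581459 on chromosome 16, read 62.5%, 41.5%, 34.1%, 33.3% and 68.2% in SSCT F1 and 31.2%, 13.8%, 0%, 3.7% and 21.1% in Control F1. At Gata3 the CpG at 9858561 on chromosome 2 read 0%, 19%, 10.3%, 0% and 16.4% in SSCT F2/M against 31.2%, 38.1%, 25.6%, 61.5% and 24.1%. At Tbx3 the CpG at 119672951 on chromosome 5 read 19.4%, 30.4%, 31.8%, 17.7% and 42.9% in SSCT F2/P against 0%, 0%, 16.7%, 0% and 0%. The other two lay at Gata2 in SSCT F2/M, at 88200619 with 27.7 points and at 88203039 with -27.3 points. Single CpGs of this kind stood apart without their genes: limma on whole gene classes called none of the member classes, 100 in each offspring comparison and 75 in the founders, in any of the 7 comparisons, and over all classes it called 1 of 32247 for SSCT F1 (0.0031%), 0 in every other offspring comparison and 9 of 12253 for SSCT F0 (0.0735%). At an unadjusted p under 0.05 it called 4, 1 and 1 member classes in the 3 comparisons with Control F1, where 5.12%, 4.85% and 4.83% of all classes passed, 5, 2 and 5 in the other 3 offspring pairs, where 5.2%, 4.91% and 4.64% passed, and 6 of 75 in the founders, where 8.12% passed.

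At the CpG-dense positions of Gata2 the SSCT F1 and Control F1 libraries did not overlap. Gata2 was picked after the values were seen. The share of gene classes without overlap over all genes was not counted, so this separation says nothing particular about the members. The Control F1 libraries read 1.95%, 1.5%, 1.43%, 1.54% and 1.68%, and the SSCT F1 libraries 3.38%, 2.64%, 3.08%, 3.23% and 2.95%. The means were 1.62% ± 0.206 and 3.06% ± 0.283, with an unadjusted exact permutation p of 0.00794, and limma gave a log2 difference of 0.71 (SE 0.296) with an adjusted p of 0.939. SSCT F2/M, with 3.99%, 1.44%, 2.14%, 2.9% and 1.78%, and SSCT F2/P, with 2.56%, 3.12%, 1.81%, 2.02% and 2.26%, overlapped both. Tbx15 CpG-dense positions read 2.11% ± 0.848 in SSCT F1 and 1.05% ± 0.533 in Control F1, and Foxc1 1.01% ± 0.238 and 1.71% ± 0.547, each with an unadjusted exact permutation p of 0.0476. Against SSCT F2/M, with 0.961% ± 0.196 at Tbx15 and 1.8% ± 0.301 at Foxc1, the SSCT F1 libraries did not overlap. The unadjusted exact permutation p was 0.00794 for each of these genes.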

How the data were processed

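RRBS libraries of epididymal sperm from 26 mice were made with the Diagenode Premium RRBS kit, and single reads of 50 bp came from a HiSeq3000. For each CpG position, the authors deposited the coverage as a raw read count and the methylated fraction of those reads. The submitters' notes name Trim Galore 0.4.1, Bismark 0.20.0, methylKit 1.7.0 and GRCm38. Bisulfite reads cannot tell methylated from hydroxymethylated cytosine, and the enzyme keeps CpG-rich fragments, so flank positions near CpG islands are read more often than distant ones.

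Methylated and unmethylated reads were recovered from coverage and fraction. Positions with under 10 reads, or in the top 0.1% by coverage of a library, were left out, and those covered in every library compared were kept. Levels are means over positions. Single CpGs and 1000 bp windows were tested by logistic regression on summed reads (chi-square, Benjamini-Hochberg q under 0.01, over 25 points). Gene classes with at least 3 positions were tested with limma 3.58.1 in R 4.3.3 on log2((methylated + 1)/(unmethylated + 1)), with Benjamini-Hochberg adjustment. Exact two-sided permutation tests over libraries were used for single values. Scripts were tested on simulated data. The titles call the libraries of a group biological replicates.

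CpG density was counted from CpGs listed in any library, since no genome sequence was used, and the levels of Pax8, Sox17, Nkx6-2 and Nkx2-1 are incomplete because one class had under 3 positions there. Promoters of Pax3, Sox9, Sox10, Sox17, Sox18, Lhx5, Gata4, Gata6, Tbx2, Tbx3, Tbx5, Tbx15, Foxc2 and Foxf1 were not matched. The members and gene lists were chosen with earlier results of these data known. Genes were named by rule: in each family, the most CpG-dense positions; over members with at least 10 positions, the 6 highest and 4 lowest flank levels and the 6 highest CpG-dense levels; up to 8 called founder windows and up to 4 in each offspring comparison, by largest difference; and Gata3. The windows of Sox11, Foxc2, Lhx3, Pax7 and Nkx6-1 and the higher Sox5 window of the founders were chosen after their values were seen. So were the founder values of single genes and of windows without SSCT F0 replicate 3, with their offspring values. The Gata2, Tbx15 and Foxc1 values in SSCT F1 and the single CpGs without overlap were chosen in the same way. Replicate numbers did not pair the libraries: deviations of same-numbered libraries correlated at -0.015 to 0.0149 over 30 offspring pairs. Alternatives covered read minima, coverage limits, window position, CpG density, the test, single libraries, a replicate block and the naming of the offspring.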

Additional observations from a re-analysis of the deposited data

Results flagged for a closer look

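Of 76 groups of 5 libraries examined, 7 held 1 library far from the other 4 by Dixon's criterion (gap over range above 0.71), and chance alone gives about 1 in 20. Pax flanks read 30.6% in Control F1 replicate 2. Sox flanks read 59.2% in SSCT F2/M replicate 1. Gata flanks read 20.2% in SSCT F1 replicate 4 and 18.8% in SSCT F2/M replicate 4. Nkx flanks read 2.2% in SSCT F1 replicate 3. The Gata6 window at chr18:11083001-11084000 read 100.0% in 1 SSCT F1 library, where the other 4 read 36.7% to 54.5%. The Pax2 window at chr19:44812001-44813000 read 13.3% in 1 Control F1 library and 0% in the other 4.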

How the results depend on the processing

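CpG-dense positions stayed below flanks in every group and setting. The level at CpG-dense positions of the 20 offspring libraries was 2.36% with at least 20 reads, 2.18% over each library's own positions, and 2.84% and 2.07% when 5 or 12 CpGs in 200 bp defined density. That of Control F0 was 2.51% with 5 CpGs. That of SSCT F0 was 3.22% with at least 20 reads, 2.73% weighted by reads, 2.52% over own positions, 2.37% with 12 CpGs and 2.55% without SSCT F0 replicate 3 over the wider positions. Offspring flanks read 29.5% and 26.9% with at least 5 and 20 reads, 34.3% over own positions, 41.0% and 17.8% with 5 and 12 CpGs, and 39.9% beyond 500 bp from dense runs. The offspring difference of dense minus flank levels was -27.1, -24.5, -32.2, -38.1, -15.7 and -37.4 points in the same order. Control F0 flanks read 6.07% with at least 20 reads, 32.8% over own positions, 12.4% and 5.83% with 5 and 12 CpGs, 13.5% beyond 500 bp and 16.5% over the wider positions, with differences of -3.71, -30.6, -9.85, -3.8, -11.2 and -14.5 points. SSCT F0 flanks read 16.4% over own positions, 10.5% with 5 CpGs and 15% over the wider positions, with differences of -13.9, -7.72 and -12.4 points, and -7.04 beyond 500 bp. The cause of these shifts was not tested.

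Counts of called members moved more. Where no share over all CpGs or windows is printed beside them, the counts here and below show only how the calls depend on the setting. They say nothing particular about the members. A test scaled by the spread between libraries called 0 member CpGs and 0 member windows in each of the 4 comparisons with controls, and at its unadjusted p under 0.05 it called 9, 7 and 10 CpGs for SSCT F0, SSCT F1 and SSCT F2/M, and 2 and 0 windows in SSCT F0 and SSCT F1. These CpGs were 0.905%, 0.157% and 0.197% of the members tested, beside 1.1%, 0.239% and 0.214% of all, and the windows 1.0% and 0%, beside 2.32% and 0.223%. With at least 5 reads 30, 27 and 28 CpGs were called in the 3 offspring comparisons. With at least 20 reads 28, 5, 3 and 2 CpGs were called, SSCT F0 first, and 6, 1 and 1 windows in SSCT F0, SSCT F1 and SSCT F2/M. Windows of at least 3 positions left 7 calls in SSCT F0 and 0, 0 and 0 in the offspring. Windows shifted by 500 bp left 1 in SSCT F1. The wider positions without SSCT F0 replicate 3 gave 215 CpGs and 31 windows. Under the names of the clustering display 1 window was called for SSCT F1 and 0 for SSCT F2/P. With the F2 lines exchanged as well, windows numbered 1, 0 and 3, and CpGs 16 for SSCT F2/P.

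Leaving out 1 library at a time gave 43 to 55 CpGs and 7 to 15 windows in SSCT F0, then 13 to 22 CpGs and 0 to 2 windows in SSCT F1. The range was 14 to 22 CpGs and 1 to 4 windows in SSCT F2/M, and 10 to 20 CpGs and 0 to 4 windows in SSCT F2/P. Limma called 0 member classes throughout. Levels without 1 library were 2.49% to 2.51% at offspring CpG-dense positions, 2.13% to 2.35% in Control F0 and 2.8% to 2.89% in SSCT F0, and in flanks 27.5%, 8.15% to 9.76% and 5.54% to 8.55%. Dense minus flank differences ranged from -25.0 in the offspring, -7.59 to -6.02 in Control F0 and -5.67 to -2.75 in SSCT F0. Without SSCT F0 replicate 3, founder windows changed direction at Sox6 (34.8 points, and 34.7 over the wider positions), Foxf1 (20.8 and 20.8), Gata6 (23.8 and 23.8), Nkx2-3 (-2.15 and -1.6) and, over the wider positions, Nkx6-1 (-0.454). Leaving out any other founder library kept their direction, with differences as far as -69.6 at Sox6, -70.6 at Foxf1, -70.5 at Gata6 and 74.0 at Nkx2-3. With a replicate block 11, 2, 3 and 1 member windows and 0 member gene classes were called, as without it. 6 of 20 offspring libraries correlated best with a library of their own number, and no pairing was found.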
